A study of Homo sapiens with 24 samples.

Results

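The change of TGFβ-treated SK-MES-1 cells from their own start was measured as 48 h against 0 h of the TGFβ arm. SK-MES-1 is an established cell line that the labels describe as squamous lung carcinoma. The 6 libraries of this comparison, of 24 in the series, were all those labelled TGF-beta at 48 h (3 libraries) or at 0 h (3 libraries). Cells of 1 line, taken from a fresh low-passage thaw, were seeded, starved of serum for 3 h some 2 days later and stimulated with 2 ng/ml TGFβ1. The libraries at 0 h came from starved cells on which the cytokine had had no time to act. The change therefore covers 48 h of TGFβ together with the 48 h of culture that followed the first 3 h of starvation. For TGFβ1 stimulation the study names a growth factor-depleted medium, listed without serum. The untreated arm, starved in the same way and given no cytokine, was measured at the same hours with 3 libraries each and is given beside the treated arm.

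TGFβ1 is secreted in a latent complex, binds a pair of serine/threonine kinase receptors (TGFBR2 and TGFBR1) and makes them phosphorylate SMAD2 and SMAD3, which enter the nucleus with SMAD4 and set transcription. Among the known targets are the pathway's own inhibitors, collagens and other matrix genes, integrins and the actin cytoskeleton. In epithelial and carcinoma cells the cytokine is known for slowing the cell cycle and for epithelial-to-mesenchymal transition (EMT), a shift from cell-cell contact towards a motile, matrix-producing state. Serum starvation by itself also slows the cell cycle, so that genes of proliferation are known to respond to both.

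The marker genes only partly matched a squamous carcinoma. Of 10 markers of squamous lung carcinoma, 5 stayed under 1 TPM (a length-corrected measure of each gene's part of all transcripts in a library) in all 6 libraries, among them the basal keratins KRT5, KRT6A and KRT14 and the desmosomal cadherin DSG3. TP63, the transcription factor of basal and squamous epithelium, was present and rose from 8.74 ± 1.09 to 26.8 ± 0.625 TPM (SD, n = 3 here and throughout). The cells carried the simple epithelial keratins KRT8, at 426 ± 44.9 TPM at 0 h, and KRT18, at 440.4 ± 4.56 TPM. Markers of other cell types were mostly near 0, with 9 of 10 markers of adenocarcinoma and alveolar cells, 7 of 10 of leukocytes, 7 of 10 of endothelium and 3 of 10 of fibroblasts under 1 TPM in all 6 libraries. The summed level of the fibroblast markers was 18.3 to 19.7 TPM at 0 h and 58.2 to 62.9 TPM at 48 h, and of the 9 tested 7 rose and 1 fell, with FAP, PDGFRB, PDGFRA and COL3A1 among the rising. In untreated cells 6 of the 9 rose and 2 fell, with a median log2 fold change of 1.29 against 1.36 with TGFβ. The change was higher with TGFβ for 3 of them and lower for 3. PDGFRA rose from 3.55 to 10.7 TPM, COL3A1 from 2.54 to 6.97 TPM and COL1A2 from 0.0193 to 0.146 TPM. The other sums were 64.3 to 68.4 TPM at 0 h and 80.5 to 81.4 TPM at 48 h for squamous markers, 12.1 to 19.5 TPM at 0 h and 18.6 to 34.9 TPM at 48 h for adenocarcinoma and alveolar markers, 35.6 to 44.3 TPM at 0 h and 13.8 to 14.6 TPM at 48 h for leukocyte markers, of which CD68 made up most, and 2.94 to 3.75 TPM at 0 h and 6.72 to 8.17 TPM at 48 h for endothelial markers. Among leukocyte markers, CD3E and TYROBP were at 0 in all 6 libraries, the pan-leukocyte marker PTPRC was at 1.66 TPM at 0 h and 1.64 TPM at 48 h, and CSF1R rose from 1.14 to 3.27 TPM (1.36 ± 0.13, adjusted p = 5.8e-09). The part of these markers in the results was not tested.

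The tables held estimated counts and TPM per transcript, summed here to genes, and the 6 libraries had between 46613589 and 57513828 estimated counts. At this depth counting error matters only for genes with few reads, and LEFTY1, for instance, had 1 to 3 counts per library at 0 h. Replicate 2 at 0 h stood apart from its group, with a chi-square per gene of 60.48 against replicate 1 and 40.24 against replicate 3, whereas pairs at 48 h lay between 3.42 and 5.9 (1 corresponds to sampling noise). The deposited tables carry a code in their names whose meaning is not stated, and 0 h and 48 h have different codes in both arms. Code and time cannot be told apart in the change from 0 h to 48 h. The arms also carry codes of their own, 4 in all, so that in the difference between the arms treatment and code cannot be told apart either. Because 0 h and 8 h share a code, as do 24 h and 48 h, the steps from 0 h to 8 h and from 24 h to 48 h are within a code, and for leading genes the steps are given beside the total. Without replicate 2 at 0 h 9890 genes passed the threshold used below, against 10102 with it, and 1 of the genes named, B2M, took another sign. Where 6 values of a gene are given, the libraries of the groups did not overlap unless said.

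Over 48 h most of the measured transcriptome moved. In limma voom, fitted to all 24 libraries with a Benjamini-Hochberg adjusted p-value below 0.01 as the threshold, 10102 of 17413 tested genes (58.0%) changed in the TGFβ arm. Of these, 5207 (29.9% of the tested genes) rose and 4895 (28.1%) fell. At least 2-fold changes passed for 1975 rising (11.3%) and 1353 falling genes (7.77%). In what follows "rose" and "fell" are used for genes past this threshold, and changes are log2 fold changes with their standard error. Levels are relative within a library, so that less RNA per cell and fewer cells of a kind cannot be told apart. The TPM values of the 3 libraries at 48 h and the 3 at 0 h did not overlap for 10956 genes (62.9%), although an exact permutation test of 3 against 3 libraries cannot give a two-sided p below 0.1 for a single gene. Between 0 h and 8 h 5906 genes (33.9%) passed, between 8 h and 24 h 4964 (28.5%) and between 24 h and 48 h 4497 (25.8%), and these steps share libraries with the total change. The sum of the steps within a code passed for 6664 genes (38.3%). At an unadjusted p below 0.05, 12106 genes (69.5%) differed between 0 h and 48 h.

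Much of this change also took place without TGFβ. In the untreated arm 9610 genes (55.2%) changed from 0 h to 48 h, and its libraries are separate from those of the TGFβ arm. Of the 1975 genes that rose at least 2-fold with TGFβ, 1069 (54.1%) also rose at least 2-fold in untreated cells, where these made up 59.4% of the 1801 such genes (10.3% of those tested). Of the 1353 genes that fell, 792 (58.5%) were shared and made up 66.6% of the 1190 falling genes (6.83%) of the untreated arm. The change differed between the arms for 3613 genes (20.7%), and was higher with TGFβ for 1839 (10.6%) and lower for 1774 (10.2%), by at least 2-fold for 660 (3.79%) and 607 (3.49%). Of the 1975 rising genes 706 (35.7%) rose further than in untreated cells, and of the 1353 falling genes 391 (28.9%) fell further. Opposite 2-fold changes were rare, with 37 genes rising under TGFβ and falling without it and 27 genes doing the reverse.

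**Figure D1:**
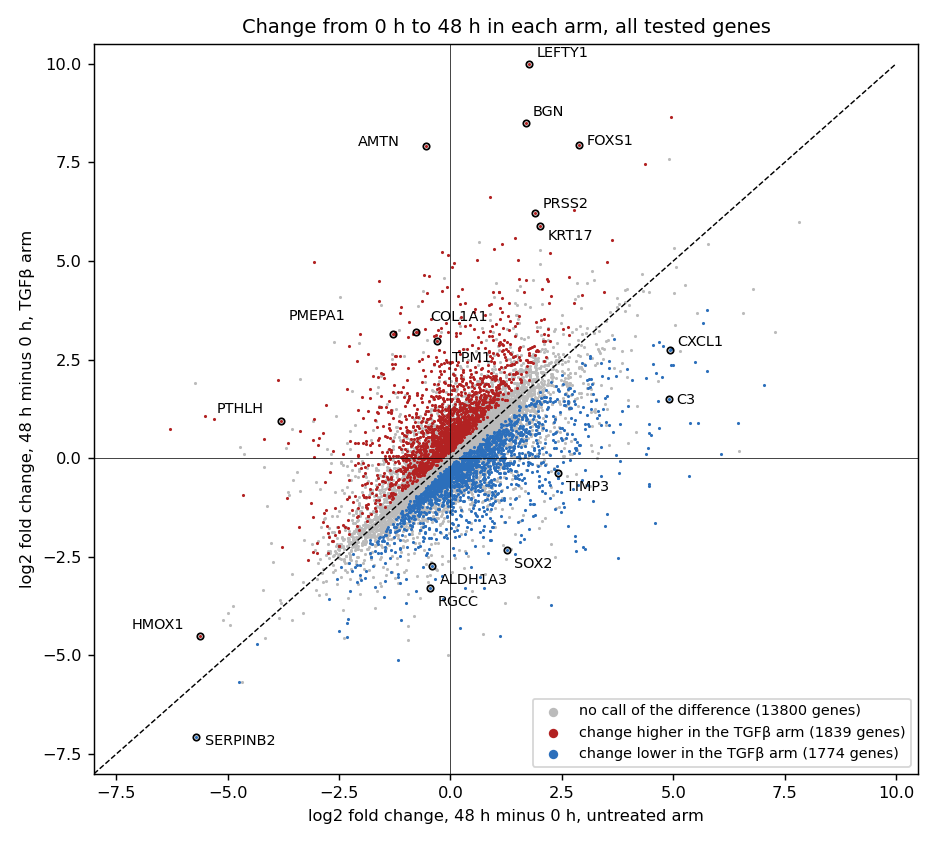
Log2 fold change from 0 h to 48 h of each of the 17413 tested genes (points) in the untreated arm (horizontal axis) and in the TGFβ arm (vertical axis), coloured by whether the change differed between the arms at an adjusted p below 0.01, with the line of equal change dashed. The 1839 genes above the line in red include LEFTY1, BGN and AMTN, the 1774 in blue include C3 and SOX2, and SERPINB2 and HMOX1 lie at the low end in both arms.

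The scale depends on what is held constant. With the 4 qRT-PCR reference genes of the study, GAPDH and HPRT1 among them, as library size, the median change of all tested genes moved from 0.02 to 0.61, 10185 genes then rose and 1313 fell (88.6% of the calls higher, against 51.5%), and the share of higher calls in the difference between the arms moved from 50.9% to 89.7%. Changes are given here relative to the median gene. Of these reference genes, GAPDH fell by 0.97 ± 0.07 and HPRT1 by 1.52 ± 0.09, whereas GUSB (0.10 ± 0.06, adjusted p = 0.12) did not pass the threshold. The share of mitochondrially encoded counts moved with time, from between 4.07% and 4.36% at 0 h to between 5.5% and 5.88% at 48 h, and its part in the changes of other genes was not tested.

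The genes that rose most, ranked by fold change among those of at least 10 TPM in a group, mostly stood low at the start. Such a ranking favours a low start, and PRSS2 was an exception. LEFTY1, a secreted inhibitor of NODAL and a known SMAD target, stood at 0.0364, 0.0249 and 0.0491 TPM at 0 h and 49.9, 51.4 and 49.9 TPM at 48 h. BGN, which encodes the matrix proteoglycan biglycan, had 0.262, 0.239 and 0.319 TPM at 0 h and 113, 113 and 94.3 TPM at 48 h, a change of 8.49 ± 0.31 (adjusted p = 9.3e-16). The groups of both genes lay far apart, and in untreated cells at 48 h BGN reached 1.03 ± 0.103 TPM. FOXS1, a forkhead transcription factor, had 0.0764, 0.152 and 0.139 TPM at 0 h and 33.7, 35.9 and 33.2 TPM at 48 h. For AMTN, which encodes the enamel matrix protein amelotin, the values were 0.551, 0.749 and 1.05 TPM at 0 h and 198, 190.0 and 191 TPM at 48 h (7.91 ± 0.20, adjusted p = 4.2e-18). In untreated cells AMTN did not pass the threshold, and its mean went from 0.696 to 0.498 TPM. PRSS2, a trypsinogen, rose from 13.5 to 1049.9 TPM (6.21 ± 0.09), while without TGFβ it went from 12.3 to 48.5 TPM. Because PRSS2 shares sequence with PRSS1 (from 0.273 to 5.45 TPM), the division of reads between the pair is uncertain, as it is between LEFTY1 and LEFTY2 and for CST4 among the cystatins. KRT17 likewise has close relatives and pseudogenes.

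Other genes among the 15 leading risers of at least 10 TPM were KRT17, a keratin of activated basal epithelium (1.69, 0.911 and 1.16 TPM at 0 h and 69.3, 71.4 and 70.7 TPM at 48 h), and PROC, the anticoagulant zymogen protein C (3.14, 2.1 and 2.75 TPM at 0 h and 60.0, 61.5 and 59.6 TPM at 48 h). NOG, which encodes the BMP antagonist noggin, went from 1.21 ± 0.172 to 29.4 ± 1.94 TPM, DRAXIN, an axon guidance protein, from 0.27 ± 0.0363 to 12.6 ± 0.297 TPM, and the calsyntenin CLSTN2 from 0.672 ± 0.124 to 17.1 ± 0.787 TPM. PODNL1, a leucine-rich matrix protein, rose from 1.27 ± 0.31 to 40.1 ± 2.87 TPM, ADAMTS10, a metalloprotease of microfibrils, from 2.66 ± 0.382 to 65.2 ± 2.6 TPM, CST4, a secreted cystatin, from 2.62 ± 0.808 to 53.4 ± 4.39 TPM, NKAIN4 from 0.14 ± 0.101 to 11 ± 0.401 TPM and SYT8, a synaptotagmin, from 0.525 ± 0.165 to 12.8 ± 1.01 TPM. Each of these 15 genes changed further with TGFβ than without it, by between 1.46 for PODNL1 (adjusted p = 0.0021) and 8.45 for AMTN (adjusted p = 1.2e-13) on the log2 scale among those with more than 3 counts per library at 0 h. They were picked for a large change with TGFβ, which is itself part of this difference, so that the count shows nothing further. Of all 1975 genes that rose at least 2-fold, 706 (35.7%) changed further with TGFβ. BGN changed by 3.46, 2.12 and 2.92 in the steps from 0 h to 8 h, 8 h to 24 h and 24 h to 48 h, and AMTN by 4.43, 1.84 and 1.63. KRT17 changed by 2.75, 1.24 and 1.91, and so rose in each step.

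All 15 leading falling genes also fell in untreated cells, and for several the fall differed between the arms. SERPINB2, the plasminogen activator inhibitor of type 2, dropped from 118, 132 and 109.6 TPM at 0 h to 0.983, 0.905 and 1.09 TPM at 48 h (-7.08 ± 0.18), and in untreated cells from 119 to 2.45 TPM. HMOX1, heme oxygenase, had 654, 589.8 and 758 TPM at 0 h and 32, 29.5 and 32 TPM at 48 h. HMOX1 fell less than in untreated cells, where it went from 628 to 13.4 TPM, and the difference between the arms was 1.11 ± 0.14 (adjusted p = 3.7e-06). CYP1A1, a target of the aryl hydrocarbon receptor, had 67.9, 68.8 and 66.5 TPM at 0 h and 3.01, 2.79 and 2.85 TPM at 48 h and changed by -4.72, -0.98 and 0.99 over the steps. The inducible heat shock gene HSPA6 went from 14.8 ± 3.81 to 0.295 ± 0.0261 TPM, the retinol dehydrogenase DHRS9 from 16.2 ± 1.18 to 0.301 ± 0.0941 TPM, the neuronal pentraxin NPTX1 from 27.4 ± 3.33 to 2.58 ± 0.498 TPM and the keratin KRT15 from 19.3 ± 2.26 to 1.85 ± 0.868 TPM. In the same group were GPAT3 of triglyceride synthesis (from 149.6 ± 13.5 to 19.6 ± 3.4 TPM), SIPA1L2 (from 47.4 ± 5.0 to 5.51 ± 0.255 TPM), KCNE4, a potassium channel subunit (from 11.4 ± 1.24 to 2.01 ± 0.503 TPM), and HS3ST1, a heparan sulfate sulfotransferase (from 11.4 ± 2.99 to 1.37 ± 0.241 TPM). The somatostatin receptor SSTR1 (10.6, 10.7 and 11.3 TPM at 0 h and 0.665, 0.609 and 0.783 TPM at 48 h) fell by 4.09 ± 0.11 with TGFβ and by 1.11 without it, a difference of -2.98 ± 0.13 (adjusted p = 1e-13). RGCC, a regulator of the cell cycle, showed the same contrast with 75.3, 72.2 and 69.7 TPM at 0 h and 8.94, 6.72 and 10.8 TPM at 48 h against from 71.9 to 57.1 TPM in untreated cells (-2.82 ± 0.12, adjusted p = 9.9e-14).

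**Figure D2:**
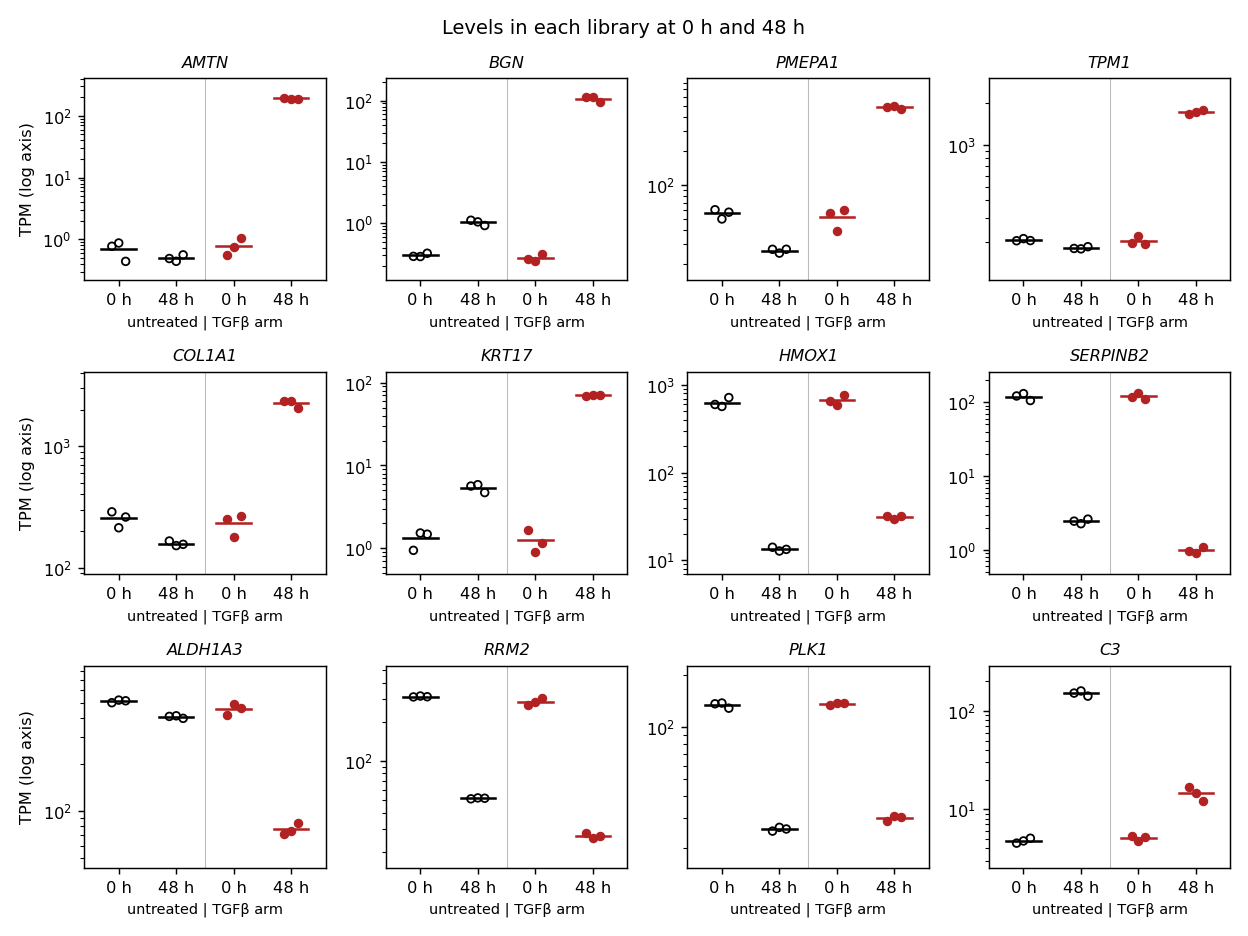
TPM (log axis) of 12 genes in each of the 3 libraries at 0 h and 48 h of the untreated arm (open black points) and of the TGFβ arm (filled red points), with the mean of each group as a line. AMTN, BGN, PMEPA1, TPM1, COL1A1 and KRT17 stand higher at 48 h with TGFβ than in the other groups, HMOX1, SERPINB2, RRM2 and PLK1 fall in both arms, ALDH1A3 falls mostly with TGFβ, and C3 rises mostly without it.

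In absolute share the largest movements were in abundant transcripts. MT-CO1, a mitochondrially encoded subunit of cytochrome oxidase, went from 12465 ± 253 to 21978 ± 634 TPM and MT-CO2 from 17082 ± 553 to 26168 ± 881 TPM, followed by MT-ATP8 (from 11400.0 ± 1049 to 14493 ± 775 TPM), MT-ND4L (from 9946 ± 1412 to 13001 ± 320.1 TPM) and MT-ATP6 (from 8463 ± 44.7 to 11469 ± 738 TPM). The largest losses were in the glycolytic enzyme GAPDH (from 6118 ± 528 to 3324 ± 78.8 TPM), the S100 proteins S100A2 (from 2691 ± 226 to 511 ± 28.5 TPM) and S100A6 (from 5539 ± 267 to 3702 ± 180.0 TPM), the cyclophilin PPIA (from 4642 ± 127 to 2553 ± 78.9 TPM) and the tubulin TUBA1B (from 2748 ± 52.7 to 795 ± 21.6 TPM). Of the 13 mitochondrially encoded genes 11 rose and none fell (median 0.30), and untreated cells showed a median of 0.36. For none of the 13 did the change differ between the arms at an adjusted p below 0.01.

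Components of the TGFβ pathway itself rose in number in both arms. Among ligands, receptors and binding proteins, of 24 tested members 15 rose, 2 fell and 7 did not pass (median 0.66, against 0.02 over all tested genes). In untreated cells 14 rose and 3 fell (median 0.47). TGFB1, the ligand that was added, rose as a transcript too, with 70.0, 48.9 and 67.2 TPM at 0 h and 182, 176 and 163 TPM at 48 h (1.45 ± 0.14, adjusted p = 1.4e-08). LTBP2 and LTBP3, which hold latent TGFβ in the matrix, went from 9.41 ± 1.42 to 76.3 ± 1.39 TPM and from 104 ± 13.5 to 392 ± 9.29 TPM. THBS1, thrombospondin, an activator of latent TGFβ, rose from 328 ± 28.6 to 1106 ± 37.5 TPM. The activin-binding protein FSTL3 had 36.5, 24.5 and 34.9 TPM at 0 h and 203, 204 and 194 TPM at 48 h, and in untreated cells it fell from 32.7 to 15.8 TPM. TGFBR1 rose by 0.75 ± 0.10, TGFBR2 by 0.29 ± 0.04, while INHBA, an activin subunit, fell from 3.46 ± 0.412 to 1.3 ± 0.116 TPM, and TGFBR3, the co-receptor betaglycan, fell by 0.38 (its libraries overlapped, and the sign turned with the reference genes as library size) against a rise of 1.09 in untreated cells. In this list the change was higher with TGFβ for 9 members and lower for 7.

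Inhibitors of the pathway were among the clearest risers. Among SMADs and feedback genes, of 26 tested members 17 rose, 5 fell and 4 did not pass (median 0.60), and in untreated cells the median was -0.01. PMEPA1, a membrane protein that keeps SMADs from the receptor, had 57.4, 39.5 and 60.6 TPM at 0 h and 489, 502 and 466 TPM at 48 h (3.14 ± 0.04). Untreated cells lost PMEPA1, from 56.2 to 26.5 TPM, so that the arms differed by 4.43 ± 0.06 (adjusted p = 9e-22), the lowest p of all genes for the difference. SMAD7, the inhibitory SMAD, had 7.48, 6.6 and 6.48 TPM at 0 h and 43.9, 47.4 and 45.4 TPM at 48 h (2.65 ± 0.06). SKIL, a SMAD corepressor, went from 6.37 ± 0.916 to 81.5 ± 4.41 TPM, and LDLRAD4, a relative of PMEPA1, from 0.544 ± 0.0894 to 3.52 ± 0.543 TPM. Most of these rises came in the first 8 h and held, with steps of 2.92, 0.20 and 0.03 for PMEPA1, 2.10, 0.19 and 0.35 for SMAD7 and 3.11, 0.68 and 0.12 for SKIL. SMAD3, the signal transducer, fell from 193 ± 17.5 to 82.3 ± 1.92 TPM. Of the ID genes, inhibitors of basic helix-loop-helix factors, ID2 fell from 27.2 to 8.09 TPM and ID3 from 57.4 to 17.8 TPM, while ID1 rose from 37.6 to 71 TPM. ID3 took the other direction in untreated cells, from 63 to 131 TPM (difference -2.69 ± 0.18, adjusted p = 2.6e-10). TGFBI, a secreted adhesion protein named for its induction by the cytokine, had 512, 572 and 505 TPM at 0 h and 1254, 1287 and 1298 TPM at 48 h, and it fell from 506 to 212 TPM without TGFβ.

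Collagens and matrix genes rose together. Of the collagens, of 22 tested members 17 rose, 2 fell and 3 did not pass (median 1.29, 0.27 in untreated cells), and the change was higher with TGFβ for 11 and lower for 2. COL1A1, the α1 chain of type I collagen, had 250.1, 179 and 264 TPM at 0 h and 2359, 2347 and 2059 TPM at 48 h (3.19 ± 0.12, adjusted p = 3.7e-15), and went from 254 to 158 TPM in untreated cells. Its usual partner chain COL1A2 rose from a very low level, with 0.015, 0.0198 and 0.0231 TPM at 0 h and 0.221, 0.155 and 0.0611 TPM at 48 h. COL5A1, which joins type I fibrils, rose from 62 ± 7.38 to 214 ± 4.67 TPM, COL7A1 of anchoring fibrils from 80.1 ± 11.9 to 208 ± 7.88 TPM, COL4A1 of basement membrane from 37.2 ± 2.94 to 88.5 ± 1.16 TPM and COL4A4 from 0.23 ± 0.0463 to 2.53 ± 0.118 TPM. COL6A2 remained high and rose from 459 ± 84.6 to 687 ± 38.4 TPM. COL8A1 (from 17 ± 2.12 to 5.53 ± 0.625 TPM) and COL13A1 (from 6.68 ± 0.367 to 1.81 ± 0.314 TPM) were the only collagens to fall.

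Of the matrix glycoproteins and matrix enzymes, of 55 tested members 38 rose, 9 fell and 8 did not pass (median 0.88, 0.08 in untreated cells). The summed level of this list was 3522 to 3823 TPM at 0 h and 9533 to 9659 TPM at 48 h. MMP2, a gelatinase, had 344, 400.1 and 366 TPM at 0 h and 2285, 2263 and 2313 TPM at 48 h (2.63 ± 0.06), and rose from 369.9 to 814 TPM without TGFβ. FN1, fibronectin, went from 282 ± 14.1 to 724 ± 14.5 TPM, CCN2, connective tissue growth factor, from 12 ± 0.188 to 99.9 ± 3.62 TPM, the collagen cross-linking enzyme LOXL4 from 3.98 ± 0.259 to 48.3 ± 2.64 TPM and the serine protease HTRA1 from 87.9 ± 2.6 to 496 ± 2.2 TPM. MMP9, another gelatinase, was too low to be tested. LAMA4, a laminin chain, rose from 8.67 to 18.1 TPM with TGFβ and fell from 8.48 to 4.18 TPM without it. Members that fell included the basement membrane protein NID2 (from 48.8 ± 4.72 to 18.4 ± 1.08 TPM), the protease ADAMTS1 (from 35.7 ± 2.77 to 6.45 ± 0.945 TPM) and CCN3 (from 16.5 ± 0.511 to 5.52 ± 0.508 TPM). TIMP3, an inhibitor of metalloproteases, fell slightly with TGFβ, from 37.8, 41.3 and 39.4 TPM at 0 h to 34.1, 31.8 and 32 TPM at 48 h (-0.38 ± 0.06), while it rose from 39 to 223 TPM in untreated cells (difference -2.80 ± 0.09, adjusted p = 7.6e-16).

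Integrins and focal adhesion genes rose in 22 of 30 cases, while 4 fell (median 0.61, 0.12 in untreated cells). ITGB3, the β3 chain of the vitronectin receptor, had 8.3, 9.86 and 10.2 TPM at 0 h and 141, 137 and 130.4 TPM at 48 h (3.79 ± 0.06). The collagen-binding chain ITGA11 had 20.7, 23.3 and 25.6 TPM at 0 h and 347, 362 and 335 TPM at 48 h (3.80 ± 0.07). ITGAV, the common αv partner, went from 92.7 ± 19.5 to 299 ± 6.62 TPM and ITGB6, which with αv activates latent TGFβ, from 1.02 ± 0.118 to 10.2 ± 0.618 TPM. NEDD9, a scaffold of focal adhesions, rose from 1.46 ± 0.0908 to 23.1 ± 0.419 TPM. The laminin receptor chain ITGA6 ran the other way, from 184 ± 26.7 to 55.2 ± 1.61 TPM, much as in untreated cells (-1.85 and -1.67). The change was higher with TGFβ than without it for 20 members of this list and lower for 2.

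Among actin and contractile genes, of 48 tested members 28 rose, 11 fell and 9 did not pass (median 0.34, -0.08 in untreated cells). TPM1, a tropomyosin that stabilises actin filaments, had 199, 221 and 196 TPM at 0 h and 1668, 1712 and 1772 TPM at 48 h (2.98 ± 0.05). In untreated cells TPM1 went from 208 to 183 TPM, and the arms differed by 3.28 ± 0.07 (adjusted p = 4.4e-18). ENAH, which lengthens actin filaments at the leading edge, rose from 97.3 ± 15.1 to 511 ± 20.2 TPM, and CORO2B from 2.7 ± 0.209 to 17.3 ± 2.08 TPM. Of the unconventional myosins that the study followed, MYO10, the motor of filopodia, had 24.4, 27.4 and 28.8 TPM at 0 h and 48.6, 47.4 and 46.8 TPM at 48 h (0.74 ± 0.04, adjusted p = 6.2e-14), and MYO1E rose from 29.7 ± 2.45 to 38.3 ± 3.37 TPM (0.34 ± 0.04). Their rise lay in the first step, with 0.82, -0.06 and -0.01 for MYO10 and 0.47, -0.09 and -0.03 for MYO1E. MYH9, the heavy chain of non-muscle myosin, did not pass the threshold over 48 h, with overlapping libraries at 312, 297 and 347 TPM at 0 h and 312, 303 and 295 TPM at 48 h (-0.18 ± 0.07, adjusted p = 0.021), after 0.23 in the first 8 h and -0.37 in the last step. The study compared these myosins between treated and untreated cells, whereas the values here are changes of the treated arm from its own start. LIMA1, an actin bundling protein, fell from 103 ± 14 to 37.4 ± 2.44 TPM, and DIAPH3, a formin, from 24.3 ± 4.32 to 6.64 ± 0.528 TPM. DIAPH3 fell much as in untreated cells (-1.97 with TGFβ and -2.22 without). The smooth muscle genes TAGLN (from 1.4 ± 0.522 to 3.44 ± 0.831 TPM) and CNN1 (from 0.826 ± 0.282 to 1.23 ± 0.381 TPM) rose but stayed at a few TPM, and the libraries of CNN1 overlapped.

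Mesenchymal genes rose more often than they fell, and so did epithelial junction genes. Of the mesenchymal genes and EMT transcription factors, of 25 tested members 15 rose, 5 fell and 5 did not pass (median 0.51, -0.22 in untreated cells). VIM, the mesenchymal intermediate filament vimentin, had 2032, 1886 and 2014 TPM at 0 h and 3563, 3575 and 3589.8 TPM at 48 h, and fell from 1859 to 764 TPM in untreated cells (difference 2.13 ± 0.07, adjusted p = 1e-15). SNAI1, a repressor of E-cadherin, had 2.66, 3.05 and 2.87 TPM at 0 h and 9.94, 10.3 and 9.22 TPM at 48 h (1.68 ± 0.09), SNAI2 rose from 27.3 ± 2.52 to 47.7 ± 0.651 TPM, ZEB1 from 13.9 ± 2.78 to 23.5 ± 0.854 TPM and CDH2, N-cadherin, from 90.8 ± 8.68 to 137 ± 4.69 TPM. The rise of CDH2 lay between 8 h and 24 h, and its steps within a code summed to -0.12 (adjusted p = 1.3e-01). SNAI1, SNAI2 and CDH2 all fell without TGFβ, by 1.17, 0.80 and 0.56, whereas ZEB1 rose by 0.41 there. SOX4 rose in both arms, from 11.8 ± 0.424 to 128 ± 1.75 TPM with TGFβ and from 12.4 ± 0.111 to 83.3 ± 1.55 TPM without. FAP, a surface protease of activated fibroblasts, rose from 0.247 ± 0.207 to 5.86 ± 0.878 TPM, and PDGFRB from 2.58 ± 0.377 to 21.1 ± 0.453 TPM. These last 2 are also fibroblast markers, and the part of the fibroblast marker sum, which rose as given above, in the mesenchymal list was not tested. AXL, a receptor tyrosine kinase, fell from 177 ± 13.3 to 55.5 ± 2.56 TPM, much as in untreated cells (-1.81 with TGFβ and -2.01 without). TWIST1 had 4.89 ± 1.13 TPM at 0 h and 4.36 ± 0.172 TPM at 48 h with overlapping libraries (-0.48 ± 0.11, adjusted p = 0.00069).

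Of the epithelial junction genes, of 38 tested members 16 rose, 6 fell and 16 did not pass (median 0.21, 0.42 in untreated cells). CDH1, E-cadherin, was low at the start and rose, with 0.969, 1.17 and 1.46 TPM at 0 h and 3.95, 3.85 and 5.62 TPM at 48 h (1.65 ± 0.10). In untreated cells CDH1 also rose, from 1.39 to 5.22 TPM (1.97 ± 0.10), and the difference did not pass (-0.33 ± 0.14, adjusted p = 0.084). JUP, plakoglobin, rose from 38.9 ± 6.54 to 192 ± 12.7 TPM, and EPCAM, an epithelial surface protein, had 27.2 ± 2.89 TPM at 0 h and 25.3 ± 2.31 TPM at 48 h (-0.14 ± 0.08, adjusted p = 0.12). CGN, cingulin of tight junctions, fell from 1.41 ± 0.192 to 0.88 ± 0.334 TPM and PKP3 of desmosomes from 35 ± 6.34 to 19.1 ± 1.96 TPM. The change was lower with TGFβ than without it for 10 junction genes and higher for 7. Among keratins, KRT7 rose from 518 ± 66.7 to 875 ± 16.8 TPM but fell from 524 to 223 TPM in untreated cells (difference 1.96 ± 0.14, adjusted p = 3.3e-10), and KRT8 and KRT18 rose in both arms (0.87 and 0.86 with TGFβ, 1.08 and 1.13 without). SOX2, a transcription factor of squamous and stem cells, had 2.25, 1.83 and 2.02 TPM at 0 h and 0.482, 0.372 and 0.441 TPM at 48 h, while untreated cells went from 2.03 to 5.23 TPM (difference -3.58 ± 0.21, adjusted p = 3.1e-11). In all, in the list of squamous lineage genes and keratins, of 23 tested members 10 rose (43.5%), 7 fell (30.4%) and 6 did not pass. Over all tested genes 29.9% rose and 28.1% fell, and in untreated cells 10 members of the list rose and 8 fell.

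**Figure D3:**
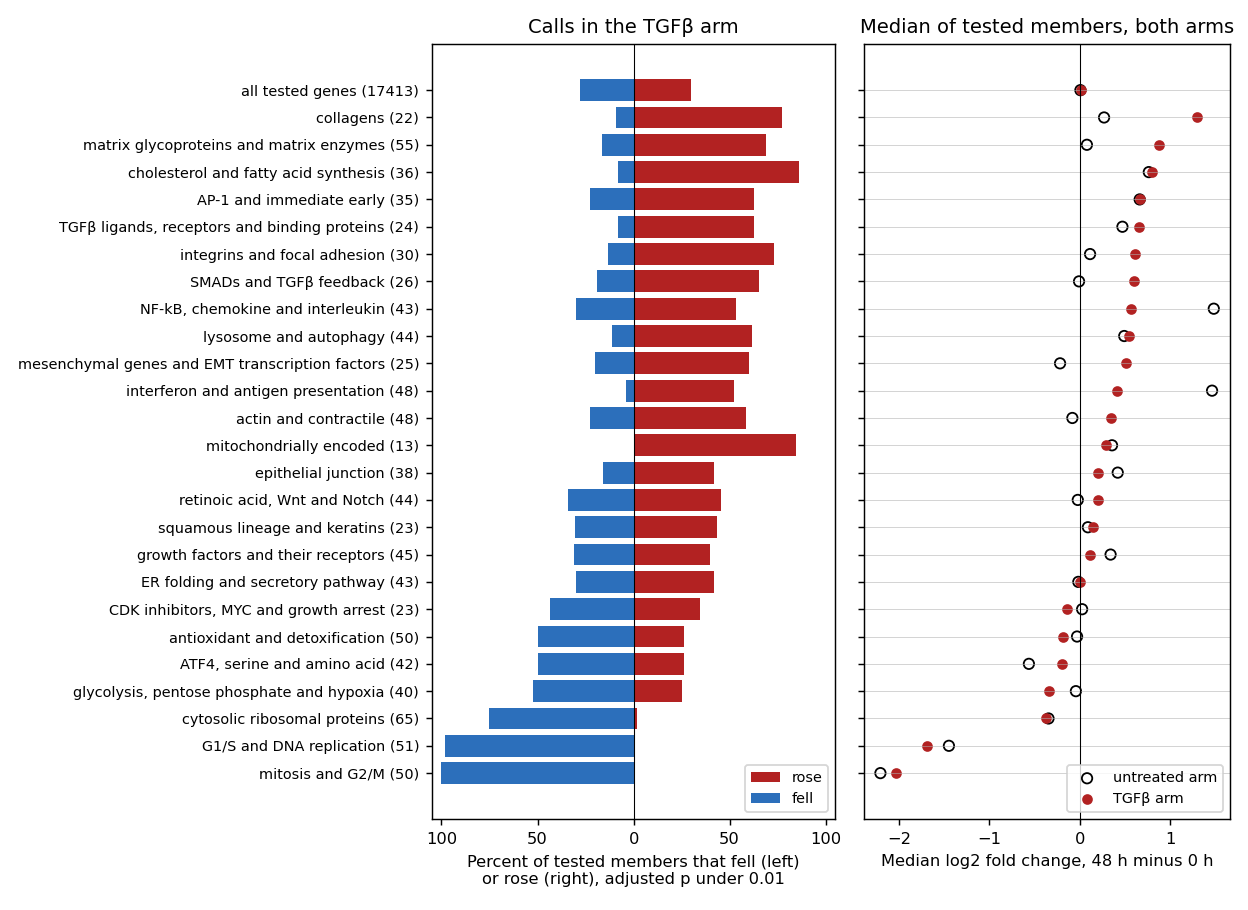
Left, percent of the tested members of each gene list (number in parentheses) that rose or fell from 0 h to 48 h in the TGFβ arm at an adjusted p below 0.01. Right, median log2 fold change of the list in the TGFβ arm (filled) and in the untreated arm (open). All 50 genes of mitosis fell, 17 of 22 collagens rose, and the interferon and NF-kB lists have their untreated medians furthest to the right of the treated ones.

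The cell cycle genes fell, with the exception of CCND1. Of 50 genes of mitosis and G2/M 50 fell, 48 of them at least 2-fold (median -2.03). Of 51 genes of G1/S and DNA replication 50 fell, 44 of them at least 2-fold (median -1.69). PLK1, a mitotic kinase, had 135, 138 and 137 TPM at 0 h and 28.8, 30.9 and 30.3 TPM at 48 h (-2.27 ± 0.06). CCNB1, cyclin B, went from 329 ± 24.6 to 84.6 ± 10.8 TPM, CDK1, its kinase, from 106 ± 13.7 to 30.6 ± 2.42 TPM, and CCNA2, cyclin A, from 76.9 ± 16.1 to 8.4 ± 2.76 TPM. RRM2, the small subunit of ribonucleotide reductase, had 269.8, 285 and 304 TPM at 0 h and 27.9, 25.4 and 26.2 TPM at 48 h (-3.58 ± 0.05, adjusted p = 6.7e-22). MCM2 of the replicative helicase fell from 116 ± 8.67 to 21.8 ± 1.05 TPM, TYMS, thymidylate synthase, from 238 ± 23.9 to 38.7 ± 3.45 TPM, and E2F2, a transcription factor of S phase genes, from 8.49 ± 0.261 to 1.14 ± 0.15 TPM. CCND1, cyclin D, did not pass, from 206 to 227 TPM (0.08 ± 0.04, adjusted p = 0.068).

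Both lists fell without TGFβ as well. Relative to the median gene, they differed between the arms in opposite directions from 0 h to 48 h. The median of the mitosis list was -2.21 in untreated cells, and 12 of its members fell less with TGFβ while 1 fell further. The median of the G1/S list was -1.45 in untreated cells, and 25 members fell further with TGFβ while 1, CCND1, was higher. The median difference of the G1/S list between the arms was -0.371. Scaling to the 4 qRT-PCR genes moved the median difference over all tested genes from -0.001 to 0.378, a shift of similar size. The direction of the G1/S list on that scale is not given here. NEK2 and BIRC5, both of mitosis, fell by 2.00 and 2.40 with TGFβ and by 2.72 and 2.99 without it, differences of 0.72 ± 0.10 (adjusted p = 5.2e-06) and 0.58 ± 0.07 (adjusted p = 2.7e-06). RRM2 fell by 3.58 with TGFβ against 2.72, a difference of -0.86 ± 0.07 (adjusted p = 2.8e-09), and MCM2 by 2.50 against 1.79 (-0.71 ± 0.11, adjusted p = 3.3e-05). The exception within the mitosis list was UBE2C, a ubiquitin-conjugating enzyme of the anaphase-promoting complex, with 219, 197 and 200.4 TPM at 0 h and 39, 40.3 and 42.8 TPM at 48 h and a difference of -0.86 ± 0.09 (adjusted p = 1.8e-07). In the last step of the TGFβ arm, which lies within a code, the median was -1.12 for mitosis and -0.96 for G1/S between 24 h and 48 h. At 24 h the arms stood in the other order. The medians from 0 h were then -0.88 with TGFβ and -0.69 without it for mitosis. For G1/S they were -0.777 with TGFβ and -1.165 without it.

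**Figure D4:**
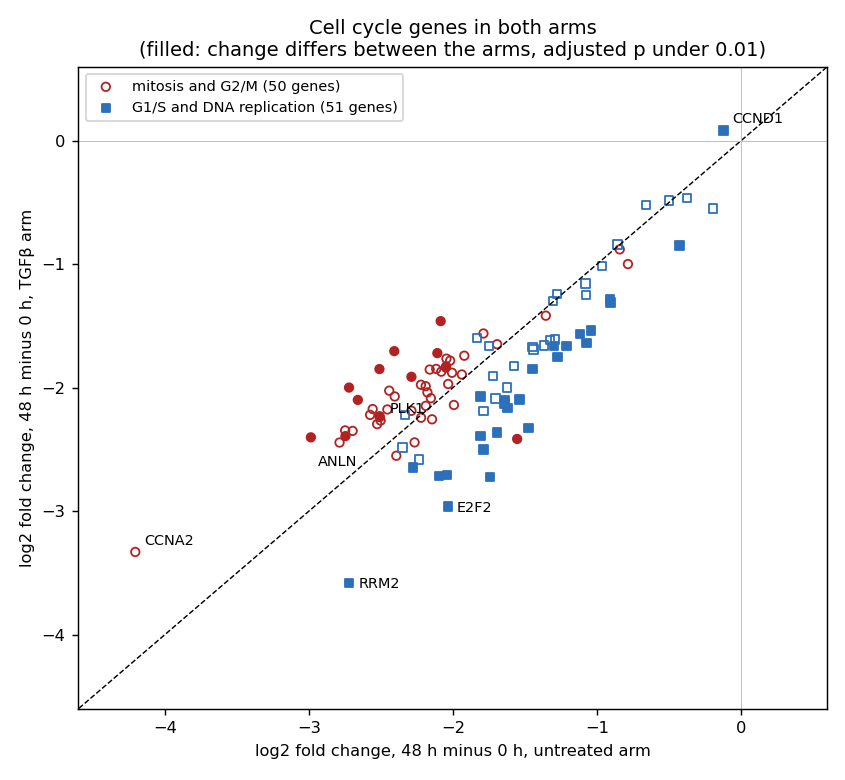
Log2 fold change from 0 h to 48 h of the 50 genes of mitosis and G2/M (red circles) and the 51 genes of G1/S and DNA replication (blue squares) in the untreated arm (horizontal axis) and the TGFβ arm (vertical axis), filled where the change differed between the arms. The 25 filled squares below the dashed line of equal change include RRM2 and E2F2, and all but 1 of the filled circles lie above it.

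These lists also differ in the letters of their promoters. The cell cycle homology region (CHR), searched as TTTGAA on either strand, and the CCAAT box, searched as CCAAT on either strand, are elements known from mitotic promoters. Promoters of 300 bases (250 before and 50 after the start, RefSeq, GRCh38.p14) were at hand for 42 of 50 mitosis genes and 42 of 51 G1/S genes. TTTGAA stood in 28 (66.7%) of the former and 1 (2.38%) of the latter, against 15.4% of all 27305 promoters of the table and 10.3% of the 12471 of tested genes. CCAAT stood in 30 (71.4%) of the mitosis and 21 of the G1/S promoters, against 35.7% of all promoters and 36.2% of those of tested genes. In the promoters of genes that fell at least 2-fold TTTGAA stood in 19.5%, and in those of genes that rose at least 2-fold in 8.83%. Among other elements, the SMAD palindrome GTCTAGAC stood in 0.0736% of rising, 0.302% of falling, 0.217% of tested and 0.201% of all promoters. The CAGA box AGCCAGACA stood in 0.368%, 0.201%, 0.329% and 0.315% of these sets, the AP-1 site TGAGTCA in 3.09%, 5.03%, 3.34% and 4.92%, and the E-box CACCTG in 20.2%, 16.9%, 18.9% and 20.6%. The SMAD palindrome stood in only 1 of 1359 rising and 3 of 995 falling promoters, and the CAGA box in 5 and 2. These counts are too few to compare rising with falling genes.

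The 130 bases before the start are printed below 5′ to 3′ for the 4 mitosis genes that fell most among those with TTTGAA in this stretch and for the 3 G1/S genes that fell most among those with a promoter in the table. They are shown to illustrate how the letters lie in promoters of both lists. Since the mitosis genes had to hold TTTGAA to be printed and the G1/S genes did not, they are no comparison of the lists, for which the shares above stand. Capitals mark TTTGAA and CCAAT in either orientation (TTCAAA and ATTGG on the printed strand), which can overlap.
ANLN, chr7:36389732-36389861, plus strand: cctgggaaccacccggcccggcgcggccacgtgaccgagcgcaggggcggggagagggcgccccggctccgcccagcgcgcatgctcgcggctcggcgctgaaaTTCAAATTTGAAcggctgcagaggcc
CDCA8, chr1:37692386-37692515, plus strand: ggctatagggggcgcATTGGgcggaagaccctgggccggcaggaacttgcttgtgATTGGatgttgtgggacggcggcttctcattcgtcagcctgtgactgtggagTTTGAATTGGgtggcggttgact
HMMR, chr5:163460502-163460631, plus strand: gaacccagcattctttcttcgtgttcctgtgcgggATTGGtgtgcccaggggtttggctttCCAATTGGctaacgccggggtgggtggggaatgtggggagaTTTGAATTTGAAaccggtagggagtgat
PLK1, chr16:23678759-23678888, plus strand: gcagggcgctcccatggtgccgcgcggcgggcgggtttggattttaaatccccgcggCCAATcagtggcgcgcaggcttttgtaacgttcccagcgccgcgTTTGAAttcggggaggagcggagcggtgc
RRM2, chr2:10122609-10122738, plus strand: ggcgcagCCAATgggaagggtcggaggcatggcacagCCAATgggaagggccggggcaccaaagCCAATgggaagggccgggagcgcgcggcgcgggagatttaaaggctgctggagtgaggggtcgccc
E2F2, chr1:23531234-23531363, minus strand: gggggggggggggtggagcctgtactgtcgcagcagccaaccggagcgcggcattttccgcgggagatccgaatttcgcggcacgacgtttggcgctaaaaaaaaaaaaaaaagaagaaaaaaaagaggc
DTL, chr1:212035618-212035747, plus strand: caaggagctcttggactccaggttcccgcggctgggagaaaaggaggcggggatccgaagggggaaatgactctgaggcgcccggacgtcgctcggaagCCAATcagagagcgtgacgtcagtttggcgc
In ANLN, CDCA8, HMMR and PLK1 the CHR letters begin within 29 bases of the start, and in HMMR and ANLN they occur as a tandem or inverted pair. CDCA8, HMMR and PLK1 carry CCAAT letters further upstream. RRM2 holds 3 CCAAT boxes, DTL 1 and E2F2 none, and none of these 3 stretches holds TTTGAA. The mean levels of ANLN, CDCA8 and HMMR fell from 248 to 47.3 TPM, from 111 to 22.8 TPM and from 75.8 to 16.9 TPM, and that of DTL from 62.3 to 9.64 TPM. A match of letters is a description of the sequence, not a site shown to be bound.

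Among CDK inhibitors, MYC and growth arrest genes, of 23 tested members 8 rose, 10 fell and 5 did not pass (median -0.14, which turned to 0.46 with the reference genes as library size). CDKN1A, the p21 inhibitor, had 159, 139.7 and 161 TPM at 0 h and 149, 149 and 137 TPM at 48 h, libraries that overlap (-0.18 ± 0.06, adjusted p = 0.0095), while in untreated cells it went from 163 to 48.3 TPM (difference 1.67 ± 0.09, adjusted p = 2.5e-12). CDKN1C rose in both arms (2.52 and 1.89), and CDKN1B fell from 40.4 ± 1.18 to 26.6 ± 0.827 TPM. GADD45B, a stress gene known as a TGFβ target, rose from 9.97 ± 1.8 to 36.8 ± 1.34 TPM. MYC fell by 0.25 ± 0.07 (adjusted p = 0.0035), with overlapping libraries and a within-code sum of the other sign, 0.39 (adjusted p = 3.1e-03).

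In metabolism, cholesterol and fatty acid synthesis rose in both arms and glycolysis fell, the latter only relative to the median gene. Of 36 lipid genes 31 rose and 3 fell (median 0.80, 0.77 in untreated cells), and the change differed between the arms for 3. SCD, a fatty acid desaturase, had 123, 151 and 141 TPM at 0 h and 577, 597 and 619.7 TPM at 48 h (2.02 ± 0.06), FADS2 went from 49.3 ± 1.67 to 273 ± 2.23 TPM and DHCR7, of the last step of cholesterol synthesis, from 114 ± 10.3 to 391 ± 8.69 TPM. The lipid list peaked at 24 h in the TGFβ arm, with a median of 1.14 from 0 h. ELOVL6, a fatty acid elongase, was the member that fell most (from 54.9 ± 0.737 to 21.8 ± 0.393 TPM), and it rose from 57.8 to 70.2 TPM in untreated cells (difference -1.77 ± 0.09, adjusted p = 2.4e-12).

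Of 40 genes of glycolysis, pentose phosphate and hypoxia 21 fell and 10 rose (median -0.34, which turned to 0.25 with the reference genes, themselves partly of this list, as library size). ENO1, enolase, had 3643, 3353 and 3583 TPM at 0 h and 1764, 1695 and 1703 TPM at 48 h (-1.14 ± 0.05), LDHA, lactate dehydrogenase, went from 1712 ± 113 to 749 ± 18.3 TPM and PGK1 from 1084 ± 64.9 to 531 ± 8.62 TPM. The falls of ENO1 and PGK1 were larger than in untreated cells, by 0.66 (adjusted p = 5.4e-07) and 0.43 (adjusted p = 6.9e-08). SLC2A3, a glucose transporter, rose from 12.1 ± 1.66 to 37.4 ± 2.9 TPM, and ANGPTL4, a secreted lipase inhibitor and known TGFβ target, from 5.4 ± 0.583 to 23.9 ± 1.39 TPM, with steps of 3.94, -1.48 and -0.29. CA9, a carbonic anhydrase of hypoxia, fell from 2.79 ± 0.73 to 0.886 ± 0.153 TPM and rose from 3.12 to 5.14 TPM without TGFβ.

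Detoxification and stress genes fell more often than they rose, a balance that turned with the reference genes as library size. Of 50 antioxidant and detoxification genes 25 fell and 13 rose (median -0.19, 0.41 with the reference genes as library size). ALDH1A3, which makes retinoic acid, had 416, 486 and 461 TPM at 0 h and 71.3, 74.9 and 83.4 TPM at 48 h (-2.73 ± 0.03). Without TGFβ it went from 510.1 to 405 TPM, and the arms differed by -2.32 ± 0.04 (adjusted p = 3.9e-19). CYP1B1, a cytochrome P450, fell from 418 ± 46.8 to 101 ± 3.18 TPM, and GCLM of glutathione synthesis from 233 ± 32.9 to 83.8 ± 4.3 TPM. AKR1B10 and AKR1C3, aldo-keto reductases, rose from 17.4 ± 2.17 to 109 ± 9.03 TPM and from 349 ± 9.91 to 1172 ± 25.2 TPM, although AKR1C3 shares sequence with its neighbours AKR1C1 and AKR1C2. FTL, the light chain of ferritin, rose from 6060.4 ± 749 to 8479 ± 276 TPM. ALDH3A2, a fatty aldehyde dehydrogenase, had 76.9 ± 3.8 TPM at 0 h and 72.1 ± 1.7 TPM at 48 h, and rose from 81.8 to 212 TPM without TGFβ (difference -1.51 ± 0.06, adjusted p = 2.5e-14).

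In the list of ATF4 targets and amino acid metabolism, of 42 tested members 11 rose, 21 fell and 10 did not pass (median -0.19, 0.40 with the reference genes as library size). Here the fall was the deeper one in untreated cells (median -0.56), and the change was higher with TGFβ for 22 members and lower for 5. STC2, a secreted stress protein, fell from 313 ± 32.4 to 48.4 ± 1.75 TPM and MTHFD2 of mitochondrial folate metabolism from 162 ± 14.6 to 76.8 ± 4.2 TPM, whereas NUPR1, a stress-induced chromatin protein, rose from 2.69 ± 0.508 to 22.7 ± 0.249 TPM. ATF4, the transcription factor of the response, fell from 364 to 338 TPM (-0.21 ± 0.04), a direction that turned with the reference genes as library size. Of the genes of endoplasmic reticulum folding and secretion, of 43 tested members 18 rose, 13 fell and 12 did not pass (median -0.001, 0.59 with the reference genes as library size), and for 11 the change was higher with TGFβ and for none lower. SERPINH1, the collagen chaperone, rose from 175 ± 22.8 to 372 ± 9.8 TPM, and KDELR3, which retrieves chaperones, from 27.3 ± 2.18 to 59.4 ± 0.961 TPM.

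Interferon and inflammatory genes rose over 48 h, but less than without TGFβ. Of 48 interferon and antigen presentation genes 25 rose and 2 fell (median 0.42), whereas in untreated cells 45 rose and 0 fell (median 1.47). The change was lower with TGFβ for 35 members and higher for 0. MX1, an antiviral GTPase, had 43.1, 52.2 and 51.8 TPM at 0 h and 97.5, 94.7 and 94 TPM at 48 h, against from 50.2 to 293 TPM in untreated cells (difference -1.92 ± 0.10, adjusted p = 5.4e-12). IFI44L rose from 11.5 ± 1.47 to 40.2 ± 3.17 TPM, OAS1, a sensor of double-stranded RNA, from 21.7 ± 0.737 to 73.2 ± 5.44 TPM and STAT2, a transducer of interferon signals, from 29 ± 2.72 to 92.3 ± 1.76 TPM. OASL, a relative of OAS1, fell with TGFβ, with 28.9, 27.1 and 28.9 TPM at 0 h and 21.8, 21.8 and 22.5 TPM at 48 h (a sign that turned with the reference genes as library size), and rose from 29.9 to 76.4 TPM without it (difference -1.75 ± 0.07, adjusted p = 1.4e-14). IFIT1 (0.14 ± 0.10) and B2M (-0.01 ± 0.05), the shared chain of class I molecules, did not pass with TGFβ, while they changed by 2.14 and 0.56 in untreated cells.

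Of 43 genes of NF-kB, chemokines and interleukins 23 rose and 13 fell (median 0.57, 1.48 in untreated cells). The change was lower with TGFβ for 30 and higher for 1, IL11, a cytokine known as a TGFβ target (4.77, 3.19 and 4.3 TPM at 0 h and 28.3, 28.4 and 27.3 TPM at 48 h). C3, a complement component, had 5.29, 4.73 and 5.17 TPM at 0 h and 16.9, 14.5 and 12.1 TPM at 48 h, against from 4.77 to 151 TPM in untreated cells (difference -3.39 ± 0.12, adjusted p = 4.1e-15). CXCL1 and CXCL8, neutrophil chemokines, rose from 2.01 ± 0.442 to 13.9 ± 2.22 TPM and from 1.56 ± 0.167 to 12.3 ± 1.34 TPM, and in untreated cells from 2.24 to 65 TPM and from 1.32 to 37.7 TPM. CXCL5, a chemokine of the same family, fell from 60.1 ± 6.92 to 21.7 ± 0.88 TPM and IL6R, the interleukin 6 receptor, from 16.8 ± 1.17 to 3.62 ± 0.344 TPM. SOD2, mitochondrial superoxide dismutase and a known NF-kB target, rose from 109.7 ± 6.88 to 334 ± 28.4 TPM with TGFβ and from 104 ± 1.19 to 1537 ± 71.6 TPM without.

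**Figure D5:**
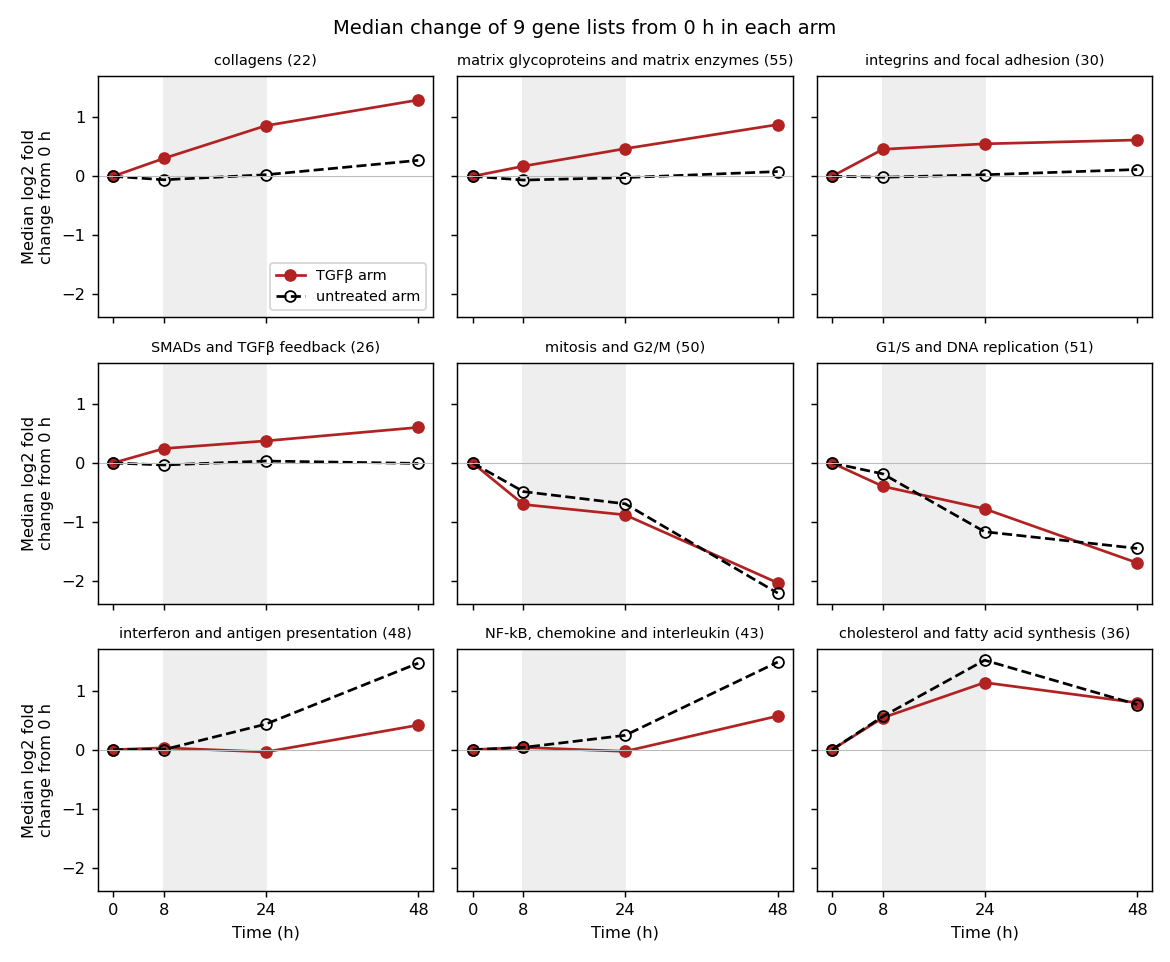
Median log2 fold change from 0 h of the tested members of 9 gene lists at 8, 24 and 48 h in the TGFβ arm (filled, solid line) and the untreated arm (open, dashed line), with the interval between 8 h and 24 h, across which the code in the table names changes, shaded. Collagens reach 1.29 at 48 h with TGFβ, mitosis genes fall to -2.03, and the interferon and NF-kB lists rise mainly after 24 h and further in untreated cells.

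Immediate early genes were higher at 48 h than at the start. Of 35 tested, 22 rose and 8 fell (median 0.67, 0.66 in untreated cells). JUNB, a subunit of AP-1, had 15.6, 9.57 and 16.7 TPM at 0 h and 99.6, 100.1 and 98.3 TPM at 48 h (2.77 ± 0.16). FOSL1, another subunit, fell from 122 ± 12.5 to 26 ± 1.66 TPM, and EGR1, a growth factor-induced factor, from 21.6 ± 2.01 to 7.91 ± 0.397 TPM. SPRY2, a feedback inhibitor of receptor tyrosine kinases, rose from 17.9 ± 1.35 to 73.6 ± 1.55 TPM.

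Growth factors and receptors moved both ways, with 18 of 45 rising (40%) and 14 falling (31.1%), against 29.9% and 28.1% over all tested genes. In untreated cells 22 rose and 16 fell (median 0.34, against 0.11 with TGFβ). PDGFB had 1.52, 1.87 and 1.77 TPM at 0 h and 32.8, 30.8 and 28.5 TPM at 48 h (4.20 ± 0.12), FGF1 rose from 0.504 ± 0.173 to 8.93 ± 1.08 TPM and IGFBP7, which binds insulin-like growth factors, from 133 ± 3.19 to 779 ± 8.46 TPM. NRP2, a semaphorin and VEGF co-receptor, had 45.2, 47.6 and 48.8 TPM at 0 h and 238, 234 and 227 TPM at 48 h, and F2R, the thrombin receptor, 21.2, 23.9 and 23.1 TPM at 0 h and 110.5, 109.6 and 112 TPM at 48 h. The EGF receptor ligands EREG and AREG fell from 225 ± 35.7 to 51.8 ± 2.14 TPM and from 29.3 ± 0.368 to 13.8 ± 0.944 TPM, and EGFR itself from 62.1 ± 9.44 to 34 ± 0.96 TPM. EGFR fell much as in untreated cells (-0.93 with TGFβ and -1.03 without). For AREG the direction differed between the arms, since it rose from 27.5 to 55.9 TPM in untreated cells (difference -2.11 ± 0.08, adjusted p = 2.5e-14). PTHLH, parathyroid hormone-related protein, had 70.9, 79.6 and 66.9 TPM at 0 h and 139, 149 and 154 TPM at 48 h, whereas it fell from 77.5 to 5.66 TPM without TGFβ (difference 4.75 ± 0.11, adjusted p = 1.2e-17).

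Of the retinoic acid, Wnt and Notch genes, of 44 tested members 20 rose (45.5%), 15 fell (34.1%) and 9 did not pass, against 29.9% and 28.1% over all tested genes. In untreated cells 18 rose and 14 fell. WNT5B, a ligand of non-canonical Wnt signalling, had 6.08, 4.15 and 5.52 TPM at 0 h and 56.5, 57.8 and 56.3 TPM at 48 h (3.34 ± 0.10) and WNT7A rose from 0.0548 ± 0.0238 to 1.12 ± 0.0886 TPM, most of it in the first step (3.08, 0.10 and 0.16 for WNT5B). CRABP2, a retinoic acid-binding protein, fell from 107 ± 6.64 to 25.4 ± 0.574 TPM. Wnt antagonism moved unevenly, with SFRP1 falling from 27.8 ± 2.47 to 12.6 ± 0.516 TPM and NKD1 rising from 1.4 ± 0.613 to 9.66 ± 1.34 TPM.

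The remaining genes that separated the arms most clearly had no common list. Higher with TGFβ were CHST3, a chondroitin sulfotransferase (6.92, 7.72 and 7.99 TPM at 0 h and 40.2, 42.4 and 41.1 TPM at 48 h), HTR1D, a serotonin receptor (8.01, 9.29 and 9.76 TPM at 0 h and 58.8, 57.5 and 58.4 TPM at 48 h), and FHOD3, a formin (31.9, 33.2 and 32.7 TPM at 0 h and 58, 57 and 59 TPM at 48 h), and all 3 fell without TGFβ (-0.27, -1.25 and -1.01). Lower with TGFβ were PLK2, a stress-induced kinase (359.8, 399.5 and 376 TPM at 0 h and 116, 115 and 136 TPM at 48 h), OTUB2, a deubiquitinase (26.9, 30.8 and 30.1 TPM at 0 h and 10.3, 10.3 and 10.6 TPM at 48 h), and SLC47A1, a cation exporter (9.15, 9.89 and 8.96 TPM at 0 h and 7.63, 7.36 and 7.46 TPM at 48 h). Of these, PLK2 and SLC47A1 rose in untreated cells, by 0.45 and 1.58.

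The cytosolic ribosomal proteins fell modestly relative to the median gene in both arms. Of 65 genes 49 fell and 1 rose (median -0.37, -0.34 in untreated cells), and the median turned to 0.22 with the reference genes as library size. RPLP0, a stalk protein, went from 3329 ± 265 to 2494 ± 40.9 TPM and RPSA from 1549 ± 99.9 to 910.1 ± 28.8 TPM, while the change differed between the arms for none of the 65. These genes have many processed pseudogenes, so that reads may be divided between copies. Lysosome and autophagy genes rose in 27 of 44 cases and fell in 5 (median 0.54, 0.49 in untreated cells). CTSD, a lysosomal protease, had 793, 611 and 808 TPM at 0 h and 1710.1, 1651 and 1592 TPM at 48 h (1.07 ± 0.13), GRN, progranulin, rose from 201 ± 35.7 to 607 ± 37.6 TPM and TFEB, a transcription factor of lysosomal genes, from 2.14 ± 0.328 to 10.8 ± 0.941 TPM.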

How the data were processed

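Total RNA of SK-MES-1 cells was sequenced at 0, 8, 24 and 48 h with and without TGFβ, with 3 libraries per group and 24 in all. The authors quantified each library with kallisto 0.43.0 against Ensembl 79 transcripts (GRCh38) and deposited estimated counts, TPM, transcript length and effective length, a table per library. The effective length was not used on its own. Estimated counts and TPM were summed here to genes through the transcript IDs of GENCODE 44, which matched 155518 of 173259 transcripts (89.8%), and gene models therefore differ from those of the authors.

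A gene was tested if 3 or more of the 24 libraries held 10 or more estimated counts of it (17413 genes). Summed counts of all 24 libraries were fitted as 8 groups with TMM factors and limma voom (limma 3.58.1, edgeR 4.0.16, R 4.3.3), without a replicate block, and p-values were adjusted by Benjamini-Hochberg over all tested genes (threshold 0.01). Contrasts were 48 h minus 0 h in each arm, their difference, and the steps. Errors of log2 values are standard errors, and errors of TPM are standard deviations. The study calls its RNA-Seq replicates biological, and how they were kept apart is not given in the sources used here, so p-values measure the spread between these libraries. Alternatives were edgeR, DESeq2 1.42.0, other scalings, filters and units, the fit to the compared libraries only, a replicate block and libraries left out, and tables and figures were made with Python 3.11.15.

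The members, gene lists and tests were chosen with earlier results of these data known. Genes named were the 15 rising and 15 falling protein-coding genes with the largest change (non-overlapping TPM, at least 10 TPM in a group), the 10 in each direction with the lowest p and at least 2-fold size for the difference between arms, the 5 largest gains and losses of TPM, leading, most abundant and defining members of each list, and genes followed by the study. BIRC5, NEK2, UBE2C, CDKN1B, COL4A1, COL5A1, COL7A1, EGFR, ENO1, GCLM, IFIT1, ITGAV, LAMA4, PGK1, TYMS and HMMR and CDCA8 of the promoter set were chosen after their values were seen. The rule names more list members than are described, and some single-gene results are not reported here.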

Additional observations from a re-analysis of the deposited data

Results flagged for a closer look

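The change from 0 h to 48 h differed between the TGFβ arm and the untreated arm for 3613 genes in limma voom (adjusted p below 0.01). The genes listed here belong to them, whereas CDH1, whose difference is also given above, did not pass. On the log2 scale (change with TGFβ minus change without it) the difference was 8.45 for AMTN, 4.75 for PTHLH, 4.43 for PMEPA1, 3.28 for TPM1, 2.13 for VIM, 1.96 for KRT7, 1.67 for CDKN1A, 1.46 for PODNL1, 1.11 for HMOX1, 0.72 for NEK2 and 0.58 for BIRC5. It was -3.58 for SOX2, -3.39 for C3, -2.98 for SSTR1, -2.82 for RGCC, -2.80 for TIMP3, -2.69 for ID3, -2.32 for ALDH1A3, -2.11 for AREG, -1.92 for MX1, -1.77 for ELOVL6, -1.75 for OASL, -1.51 for ALDH3A2, -0.86 for UBE2C, -0.86 for RRM2, -0.71 for MCM2, -0.66 for ENO1 and -0.43 for PGK1. The adjusted p of each is given with its result. Groups of 3 libraries are too small for a test of single outlying libraries.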

How the results depend on the processing

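The number of genes changed from 0 h to 48 h (10102) was 10142 with edgeR, 10259 with DESeq2, 8158 in a fit of the 6 libraries alone and 11702 at an adjusted p below 0.05, and the other normalizations, units and filters gave between 9279 and 11498. Scaled to the 4 qRT-PCR genes, the genes changed at least 2-fold went from 3328 to 5398 and those differing between the arms from 3613 to 5814, and signs turned among named genes, to a log2 fold change of 0.52 for ALDH3A2, 0.39 for ATF4, 0.59 for B2M, 0.41 for CDKN1A, 0.46 for EPCAM, 0.34 for MYC, 0.41 for MYH9, 0.088 for OASL, 0.45 for PTPRC, 0.078 for RPLP0, 0.20 for SLC47A1, 0.23 for TGFBR3, 0.22 for TIMP3 and 0.11 for TWIST1. On log2(TPM + 1) 2009 genes changed at least 2-fold, a scale that shrinks changes of low genes, and B2M turned to 0.085 there and with a pseudocount of 0.1. The sum of the steps within a code, chosen after seeing the data, gave 6664 changed and 2008 at least 2-fold changed genes, with the other sign at 0.13 for ALDH3A2, -0.12 for CDH2, -0.040 for GUSB, -0.28 for IFIT1 and 0.39 for MYC. It leaves out the step from 8 h to 24 h, and has larger errors, being a sum of 2 contrasts.

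Leaving out each library in turn gave 9310 to 9890 changed genes, 3160 to 3340 changed at least 2-fold and 3175 to 3734 that differed between the arms. B2M, not past the threshold in any of these, took values from -0.044 to 0.017, above 0 without replicate 2 at 0 h, replicate 1 at 48 h or replicate 2 at 48 h. Of 4100 values of 205 named genes over all alternatives, 3998 kept their direction and side of the threshold.

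The labels do not say that a replicate number marks a shared culture or day, and not every same-numbered pair deviated together. The same-numbered libraries at 0 h and 48 h of the TGFβ arm deviated from their group means with correlations between -0.054 and 0.057. Between the arms at 0 h, which bears on the difference between them, same-numbered libraries had 0.204, 0.299 and 0.069, against -0.252 to 0.097 for different numbers, and replicate 3 with TGFβ did not correlate best with its own number. At 48 h the same-numbered values were -0.014, 0.007 and 0.096. With the replicate block 10558 genes changed, 3322 at least 2-fold, and 4006 differed between the arms, and with the block in the fit of only the compared libraries 7995, 3239 and 3036.

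Low counts limit LEFTY1, FOXS1, NKAIN4 and COL1A2 at 0 h, for which no fold is given. Time cannot be separated from the code of the tables, and TPM are relative.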
